A study of Drosophila melanogaster with 14 samples.

Results

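The genes described here are 9 heat shock proteins and chaperones of the Drosophila melanogaster embryo: the small heat shock proteins Hsp22, Hsp23, Hsp26, Hsp27, Hsp67Ba and Hsp67Bc, the Hsp70 family proteins Hsp68 and Hsc70-4, and Hsp83, the fly Hsp90. They were chosen by gene symbol, as 9 of the 15682 genes in the table of wild type extracts and 8 of the 15288 genes in the table of mutant embryos, where Hsc70-4 was not analysed. Small heat shock proteins share an alpha-crystallin domain and hold unfolding proteins so that they do not aggregate, Hsp70 proteins bind and release short unfolded stretches using ATP, and Hsp90 completes the folding of kinases, receptors and other clients. Heat induces most of these genes through the transcription factor Hsf, whereas Hsp26, Hsp27 and Hsp83 are also transcribed without heat in the nurse cells of the ovary and loaded into the egg as maternal mRNA. Maternal Hsp83 mRNA is a textbook case of selective decay in the early embryo, being cleared from the bulk cytoplasm and protected at the posterior pole.

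RNA was depleted of ribosomal RNA and sequenced from 14 libraries, 2 per group. The first table held nuclear extracts and cytoplasmic extracts of wild type Oregon R embryos aged 90–180 min after egg laying, and whole wild type embryos aged 0–45 min. The second held whole embryos aged 0–180 min from mothers carrying grp fs1 (grp encodes the checkpoint kinase Chk1), Slbp 10/12 or Slbp 10/15 (2 allele combinations of the histone mRNA stem-loop binding protein), and from wild type Oregon R. The labels give Oregon R as the strain of every sample. The mutant embryos had trans-heterozygous mothers and wild type Oregon R fathers, so the genotype named is that of the mother, and each embryo carried a paternal wild type copy. Nothing in the labels says that the 2 libraries of a group came from separate collections, so the p-values measure only the spread between those libraries, which may be technical.

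Libraries held 26817392 to 33866670 reads in the first table and 17368684 to 23410870 in the second. As a check of the labels, grp averaged 1888 normalized counts in grp fs1 embryos and 13710 in wt (log2 fold change −2.86), and Slbp averaged 223 in Slbp 10/12 and 224 in Slbp 10/15, against 2825 in wt. The fractions were less clear. Hsromega, the long noncoding RNA of the nuclear omega speckles, was higher in the nuclear extracts. Of 3 nuclear RNAs chosen as markers (roX1, roX2 and 7SK), 0 were called higher and 2 lower there, where 26.9% and 28.6% of all genes were. The 32 small nuclear RNA rows, 7SK among them, summed to 73751 and 70214 normalized counts in the nuclear extracts, against 714960 and 1151221 in the cytoplasmic extracts. The 2 cytoplasmic libraries also stood apart from each other, with a median absolute gap of 0.583 (log2) over genes with a group mean of at least 50, against 0.370 between the nuclear and 0.0732 between the early libraries. Muscle differentiates long after the ages sampled, yet a set of 7 muscle genes summed to 25283 and 9491 in nuclear, 5554 and 28556 in cytoplasmic and 24140 and 20202 in early libraries. These transcripts go against the age given for the early embryos, and every comparison with them was made with the labels as given. In the second table the same sum was 8.40 and 3005 in grp fs1 embryos, 14.6 and 16.6 in Slbp 10/12 and 26.3 and 46.5 in Slbp 10/15, against 15639 and 17157 in wt. The sums in wt and in 1 grp fs1 library (3005) go against the age given there too. In comparisons with wt, and in those of grp fs1 with the Slbp mutants, genotype and the actual age of the embryos therefore cannot be told apart. Genes of cellularization (5 genes) summed to 5348 to 9747 in the 6 mutant libraries, against 20633 and 20578 in wt. Of 6 germ plasm genes, 1 rose in grp fs1 (vas, by 0.91 on the log2 scale), 1 fell in Slbp 10/12 and 2 fell in Slbp 10/15, nos in both. Over all genes tested, 14.3% rose in grp fs1, and 33.0% fell in Slbp 10/12 and 38.9% in Slbp 10/15. Between the extracts, 5 of the 6 were lower in nuclear than in cytoplasmic, where 28.6% of all genes were. In extracts of whole embryos, fewer cells of a type and less RNA per cell cannot be told apart.

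Of the 9 genes, 6 lie within 14.184 kb of chromosome arm 3L (3L:9371511-9385694, build BDGP6.54; the reads had been counted on dm3), the small heat shock cluster shown in the map of the locus. From its left end the cluster holds Hsp67Bc (minus strand), CG4456 and Hsp22 (plus), CG4461 (plus), Hsp26 and Hsp67Ba (minus), and Hsp23 and Hsp27 (plus). Hsp83 also lies on 3L (3L:3192969-3197059, plus), whereas Hsp68 (3R:24055080-24057310, minus) and Hsc70-4 (3R:15242687-15246614, plus) lie on 3R. Hsp22, whose product works in the mitochondrial matrix, was listed at 0 in all 14 libraries and entered no test. All 1900 of its exon bases, 100%, are shared with CG4456 (an older symbol in the table is Hsp67Bb), which was itself listed at no more than 2.63 normalized counts. How reads in shared exons were assigned is not given in the sources used here, so the 0 cannot be read as absence of Hsp22 mRNA. Hsp67Ba shares 75.9% of its exon bases with an antisense RNA listed as CR43481, and whether the counting used strand is not given either, so reads of these 2 genes may not be told apart.

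**Figure D1:**
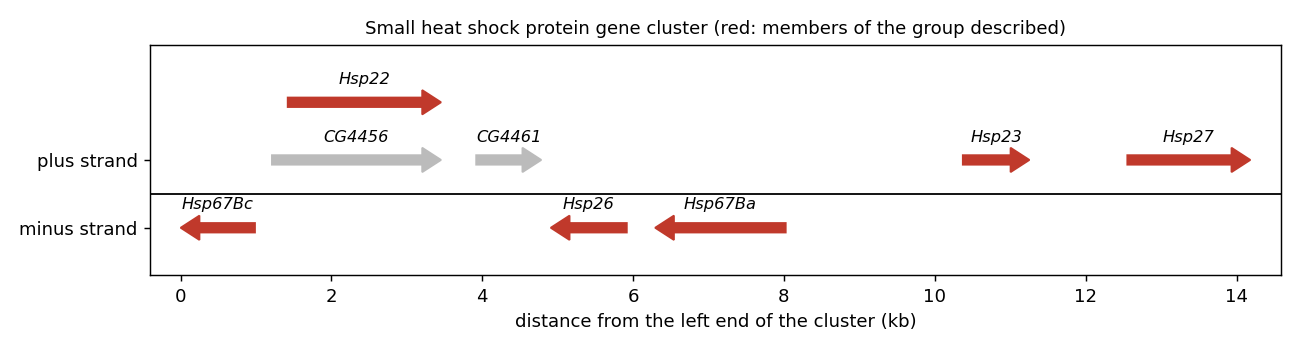
The small heat shock protein gene cluster, drawn to scale along the x axis in kb from its left end, with arrows for genes on the plus strand (above the line) and the minus strand (below it). Red arrows mark the 6 cluster genes described here and grey arrows the other genes. Hsp22 is drawn above CG4456 because it lies inside it.

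Levels of the members spanned more than 3 orders of magnitude within the cluster alone. In wt embryos of 0–180 min, scaled by gene length (FPKM), Hsp26 was at 1410 ± 34.2 (SD, n = 2), the rank of 51 among 15288 genes, and Hsp83 at 1240 ± 11.01, the rank of 66. Hsp27 followed at 309 ± 66.95 FPKM and Hsp23 at 73.5 ± 0.891 FPKM. Hsp68 was at 6.40 ± 0.0418 FPKM, Hsp67Bc at 1.56 ± 0.342 FPKM and Hsp67Ba at 0.439 ± 0.00140 FPKM, so that Hsp26 and Hsp67Ba, neighbours on the same strand, stood at opposite ends of the order. The spreads of neighbours in this order did not overlap. Per kb of exon in early embryos, Hsp26 (52615 ± 1824 normalized counts per kb) and Hsp83 (42850 ± 251) were again the highest, close to Hsc70-4 (38185 ± 1527), the constitutive cytosolic Hsp70. By share of all reads, Hsp83 took 0.511% and Hsc70-4 0.418% of the early libraries.

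The extracts were compared first, to ask which of these mRNAs were recovered more in one fraction than in the other. Hsp26, Hsp27, Hsp83 and Hsc70-4 were lower in the nuclear than in the cytoplasmic extracts, and Hsp23 was higher. Hsp26 had 6078 and 6676 normalized counts in the nuclear extracts, against 100432 and 52728 in the cytoplasmic extracts, a 12.0-fold lower mean (log2 fold change −3.51 ± 0.40 SE, adjusted p = 3.4e-06). Hsp27 had 4004 and 4268 in nuclear and 27102 and 17130 in cytoplasmic extracts, 5.35-fold lower (−2.38 ± 0.33, adjusted p = 1.7e-05). For both genes every nuclear library lay far below every cytoplasmic one, and the calls held in all 6 fits without 1 library and in all 8 other alternative settings. Hsp83 had 39015 and 51752 in nuclear, against 196980 and 97870 in cytoplasmic extracts (−1.63 ± 0.50, adjusted p = 0.012). Hsc70-4 had 106429 and 134939 in nuclear, against 357665 and 263970 in cytoplasmic extracts (−1.36 ± 0.54, adjusted p = 0.043).

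Hsp23 ran the other way. It had 1932 and 2349 normalized counts in the nuclear extracts, against 578 and 1449 in the cytoplasmic extracts, a 2.11-fold higher mean (log2 fold change 1.22 ± 0.38, adjusted p = 0.012). The nuclear libraries did not overlap the cytoplasmic ones, but the size rested on cytoplasmic replicate 1, without which the log2 difference was 0.56. The small heat shock protein CG14207, outside the cluster on chromosome X, had a like order, with 1944 and 2587 in nuclear and 668 and 1557 in cytoplasmic extracts (1.14, adjusted p = 0.014). Hsp67Ba, at 22.5 and 28.3 in nuclear and 62.7 and 57.95 in cytoplasmic extracts, did not pass the test although the libraries did not overlap (−1.22, adjusted p = 0.078, and called where every library had to reach 5). Its antisense partner CR43481 was lower in the nuclear extracts (−1.98, adjusted p = 0.019), at low counts of 8.25 and 11.3 in nuclear and 67.6 and 25.0 in cytoplasmic extracts. Hsp68, at 597 and 748 against 947 and 599, overlapped (−0.17, adjusted p = 0.68). Hsp67Bc overlapped too, at 34.5 and 20.2 in nuclear and 14.5 and 48.7 in cytoplasmic extracts (−0.02, adjusted p = 0.98), and within each extract, though not in early embryos, its higher library was the one with the higher sum of muscle genes. Their part in that spread was not tested.

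**Figure D2:**
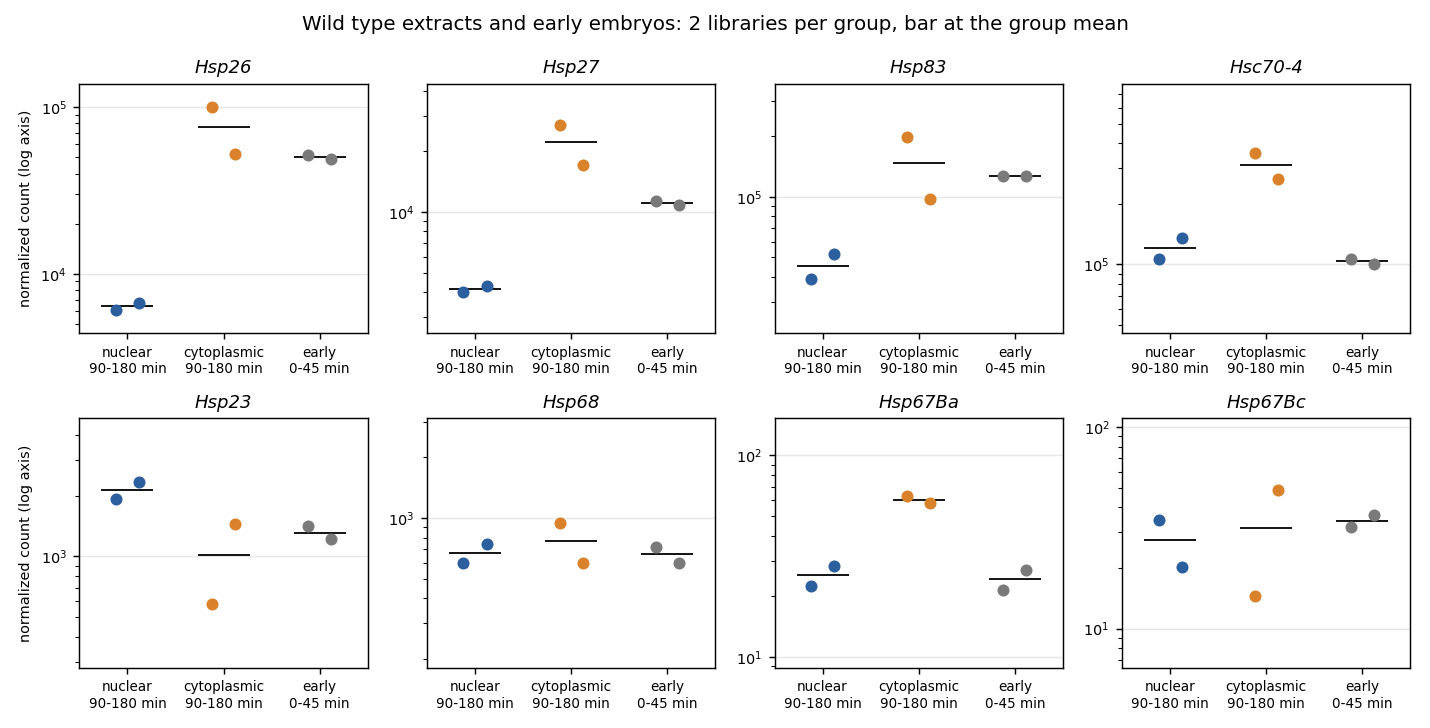
Normalized counts of 8 members (log axes, one panel per gene) in the nuclear and cytoplasmic extracts of 90–180 min wild type embryos and in early whole embryos. Points are the 2 libraries of a group and bars their mean. Hsp26, Hsp27 and Hsp83 are lowest in the nuclear extracts, Hsp23 is highest there, and for most members other than Hsp67Ba the cytoplasmic libraries are the most spread.

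In all, 1 member rose and 4 fell of 8 tested between the nuclear and cytoplasmic extracts, at an adjusted p under 0.05. Over all 10335 genes tested 55.5% were called, 26.9% higher and 28.6% lower, so a call was common here, and the median log2 fold change was −1.29 over the members against 0.242 over all genes. Without 1 library at a time, Hsp23 lost its call without cytoplasmic replicate 1 (adjusted p = 0.068) or nuclear replicate 1 (0.14) or 2 (0.19), and Hsp83 without cytoplasmic replicate 1 (0.14) or nuclear replicate 1 (0.17) or 2 (0.091). Hsc70-4 lost it in all 6 such fits (adjusted p 0.07 to 0.23), among them those without either early library, and under 5 of 8 other alternatives, such as upper quartile scaling (0.11). Within each library, where no scaling enters, the ratio of Hsp26 to Hsp27 reads was 1.52 and 1.56 in the nuclear extracts, 3.71 and 3.08 in the cytoplasmic extracts and 4.54 and 4.55 in early embryos, a comparison chosen after the values were seen.

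The extracts of 90–180 min were then set against the whole embryos of 0–45 min. In these comparisons age and fractionation cannot be told apart. Early embryos had 51641 and 49170 normalized counts of Hsp26, so that the nuclear extracts were 7.90-fold lower (−2.98 ± 0.40, adjusted p = 2.7e-05) while the cytoplasmic extracts, both above the early libraries, did not pass the test (0.53 ± 0.40, adjusted p = 0.3). Hsp27, at 11371 and 10796 in early embryos, was lower in the nuclear extracts (−1.42 ± 0.33, adjusted p = 0.0035) and higher in the cytoplasmic extracts (0.96 ± 0.33, adjusted p = 0.031). Hsp83, at 127360 and 126311 in early embryos, was lower in the nuclear extracts (−1.50 ± 0.50, adjusted p = 0.038), and the cytoplasmic libraries lay on both sides of the early ones (0.13 ± 0.50, adjusted p = 0.86). Hsc70-4, at 106643 and 100776 in early embryos, showed the opposite split, higher in the cytoplasmic extracts (1.57 ± 0.54, adjusted p = 0.033) and overlapping in the nuclear extracts (0.21 ± 0.54, adjusted p = 0.83). By share of reads, Hsc70-4 took 0.493% of the nuclear, 0.808% of the cytoplasmic and 0.418% of the early libraries, and Hsp26 took 0.0263%, 0.199% and 0.203%.

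Among the less abundant members none passed the limma test of all groups against early embryos. Hsp23 had 1413 and 1216 normalized counts in early embryos, below both nuclear libraries (0.70, adjusted p = 0.21) and between the cytoplasmic ones (−0.52, adjusted p = 0.29). The nuclear difference was called with only the groups compared (0.01) and without cytoplasmic replicate 1 (0.014) or 2 (0.0087). Without cytoplasmic replicate 2, Hsp23 was called lower (−1.18, adjusted p = 0.00061) and Hsp26 higher (0.995, adjusted p = 0.024) in the remaining cytoplasmic library than in early embryos. Hsp68 had 723 and 598, Hsp67Ba 21.5 and 27.1, and Hsp67Bc 31.8 and 36.7. Of these, Hsp67Ba in the cytoplasmic extracts lay above both early libraries (1.29, adjusted p = 0.086), and Hsp68 and Hsp67Bc overlapped them in both extracts.

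Counting the members, 3 of 8 fell and 0 rose in nuclear extracts against early embryos, where 24.0% of all genes tested were called (8.35% higher, 15.7% lower). In cytoplasmic extracts against early embryos 2 rose and 0 fell, where 36.9% were called (17.8% higher, 19.0% lower). Hsp26 in the nuclear extracts lost its call without nuclear replicate 1 (adjusted p = 0.065) or 2 (0.054), Hsp27 without either nuclear or either early library (0.067 to 0.12), and Hsp83 without the same 4 libraries (0.21 to 0.29). In the cytoplasmic extracts the calls of Hsp27 (0.063 to 0.27) and Hsc70-4 (0.099 to 0.26) were lost without any library other than cytoplasmic replicate 2, and with only the groups compared (0.093 and 0.14).

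An enrichment score, 2 times a group's mean normalized count over the sum of the 3 groups' means, puts the same levels on one scale. Hsp26 scored 0.0956 in nuclear, 1.15 in cytoplasmic and 0.756 in early samples, and Hsp27 0.222, 1.19 and 0.594. Hsp83 scored 0.284, 0.922 and 0.794 in the same order, and Hsc70-4 0.451, 1.16 and 0.388. Hsp23, at 0.958, 0.454 and 0.588, was the member with its highest score in the nuclear extracts. The medians over all genes were 0.708, 0.637 and 0.634.

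The mutants were compared with wt to ask which of these mRNAs differed in level, with genotype and the actual age of the embryos not told apart. Hsp26 was lower in all 3 mutants, Hsp67Bc was lower and Hsp67Ba higher in both Slbp mutants, and Hsp68 was lower in grp fs1. Hsp26 had 21374 and 18036 normalized counts in grp fs1 embryos, 13977 and 17637 in Slbp 10/12 and 10235 and 13883 in Slbp 10/15, against 29472 and 28477 in wt. Every mutant library lay below both wt libraries, by a log2 fold change of −0.56 ± 0.17 in grp fs1 embryos (adjusted p = 0.032), −0.88 ± 0.17 in Slbp 10/12 (adjusted p = 0.0056) and −1.28 ± 0.17 in Slbp 10/15 (adjusted p = 0.0014). The Slbp 10/15 call held in all 8 fits without 1 library and in all 8 other alternatives. That of Slbp 10/12 was lost without wt replicate 1 (adjusted p = 0.073) or 2 (0.059), and that of grp fs1 without either grp fs1 library (0.067 and 0.14), without either wt library (0.18 and 0.16), without a filter on low values (0.13) and with edgeR (0.062).

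Hsp27 and Hsp83, which like Hsp26 are loaded into the egg by the ovary, did not pass the limma test in any mutant. Hsp27 had 10304 and 9198 in grp fs1 embryos, 7510 and 8934 in Slbp 10/12 and 8171 and 9438 in Slbp 10/15, against 6847 and 9326 in wt, and every group overlapped wt. The 95% intervals of its log2 difference had lower ends of −0.08 in grp fs1 embryos, −0.33 in Slbp 10/12 and −0.23 in Slbp 10/15. Within each library the ratio of Hsp26 to Hsp27 reads was 2.07 and 1.96 in grp fs1 embryos, 1.86 and 1.97 in Slbp 10/12 and 1.25 and 1.47 in Slbp 10/15, against 4.30 and 3.05 in wt, again without overlap. Hsp83 had 105597 and 85150 in grp fs1 embryos, 78179 and 83590 in Slbp 10/12 and 69624 and 64028 in Slbp 10/15, against 79242 and 78253 in wt (0.27, adjusted p = 0.11; 0.04, 0.81; −0.24, 0.13). Both grp fs1 libraries were above wt and both Slbp 10/15 libraries below it. Hsp83 was called higher in grp fs1 by edgeR (adjusted p = 0.047), by DESeq2 (0.017) and without grp fs1 replicate 2 (0.026), and lower in Slbp 10/15 by DESeq2 (0.031).

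**Figure D3:**
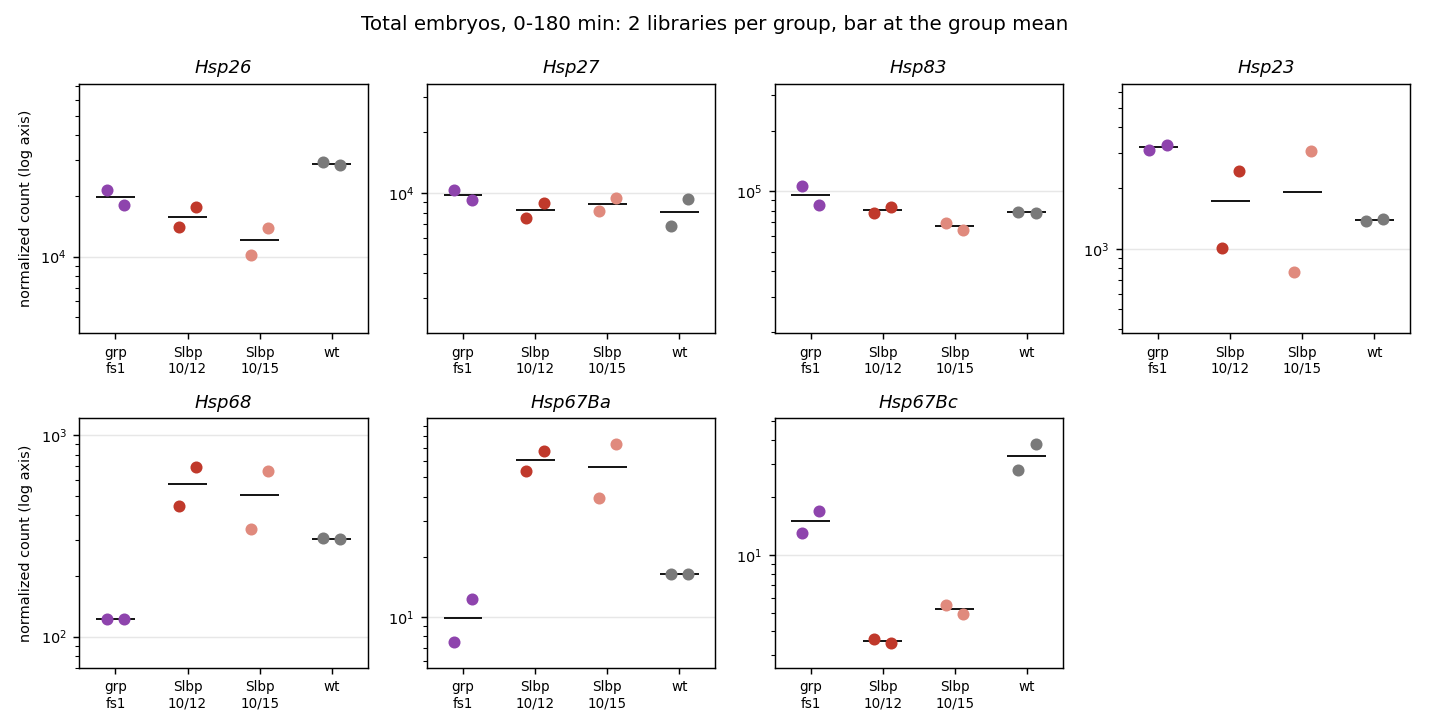
Normalized counts of 7 members (log axes, one panel per gene) in total embryos of 0–180 min from grp fs1 mothers, from mothers of the Slbp 10/12 and 10/15 combinations, and from wt. Points are the 2 libraries of a group and bars their mean. Hsp26 and Hsp67Bc are highest in wt, Hsp67Ba is highest in the Slbp mutants, Hsp68 is lowest in grp fs1, and the Slbp replicates of Hsp23 lie far apart.

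Hsp67Bc, a cytosolic small heat shock protein that in flies works with the co-chaperone Starvin in autophagy, had the largest fall of any member in the mutants. It had 13.1 and 17.0 normalized counts in grp fs1 embryos, 3.66 and 3.50 in Slbp 10/12 and 5.49 and 4.95 in Slbp 10/15, against 27.9 and 38.2 in wt. These are 14 and 18, 4 and 4, and 5 and 5 reads, against 24 and 35 reads. Its mean was 9.24-fold lower in Slbp 10/12 (log2 fold change −2.88 ± 0.47, adjusted p = 0.0033) and 6.33-fold lower in Slbp 10/15 (−2.44 ± 0.47, adjusted p = 0.0048), and both calls held in all 8 fits without 1 library and in the 7 other alternatives that gave a value. In grp fs1, which lay between, it did not pass (−1.08 ± 0.47, adjusted p = 0.097, or 0.031 with a pseudocount of 5). By the measure of a 4-fold or larger fall between group means, Hsp67Bc fell in both Slbp mutants and 0 members fell in grp fs1. Of the 9672 genes compared, 24.0% fell so far in grp fs1 embryos, 28.0% in Slbp 10/12 embryos and 27.3% in those of Slbp 10/15. No member rose 4-fold in any mutant, where 0.393%, 0.538% and 0.641% of genes did. Another small heat shock protein gene, l(2)efl, was listed at 0 in all 4 Slbp libraries and at 0 and 4.71 in grp fs1, against 41.9 and 44.7 in wt. The muscle genes given above had the same order of group means, with 4 of 7 lower in grp fs1 and 7 of 7 in each Slbp mutant. Library by library the order was not shared. In grp fs1 replicate 1 the muscle sum (8.40) lay below every Slbp library (14.6 to 46.5), whereas Hsp67Bc (13.1) lay above every one. The part of the muscle genes in the fall of Hsp67Bc was not tested.

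Hsp67Ba and Hsp68 lay on opposite sides of wt in grp fs1 and in the Slbp mutants. Hsp67Ba had 7.46 and 12.2 normalized counts in grp fs1 embryos, 54.0 and 67.3 in Slbp 10/12 and 39.5 and 73.2 in Slbp 10/15, against 16.3 and 16.4 in wt. It was 3.71-fold higher in Slbp 10/12 (log2 fold change 1.82 ± 0.48, adjusted p = 0.018) and 3.45-fold higher in Slbp 10/15 (1.66 ± 0.48, adjusted p = 0.021), while grp fs1, below both wt libraries, did not pass (−0.71 ± 0.48, adjusted p = 0.26). The antisense CR43481 had 32.7 and 27.3 in grp fs1 embryos, 40.3 and 41.9 in Slbp 10/12 and 31.8 and 28.7 in Slbp 10/15, against 14.0 and 17.5 in wt, above wt in every mutant library and called in Slbp 10/12 (1.34, adjusted p = 0.026). Its part in the counts of Hsp67Ba was not tested. Hsp68, a heat-inducible Hsp70, had 122.2 and 122.4 in grp fs1 embryos, 445 and 692 in Slbp 10/12 and 340 and 665 in Slbp 10/15, against 307 and 304 in wt. It was 2.50-fold lower in grp fs1 (−1.31 ± 0.32, adjusted p = 0.017), and although all 4 Slbp libraries lay above wt, neither Slbp mutant passed (0.86, adjusted p = 0.062; 0.64, adjusted p = 0.13). In Slbp 10/12 the call was made by edgeR (adjusted p = 0.04), by DESeq2 (0.048), and by limma with only Slbp 10/12 and wt in the fit (0.034). The call was also made by limma without Slbp 10/15 replicate 1 or 2. In Slbp 10/15 it was made without Slbp 10/15 replicate 1 (0.018).

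Set against each other, grp fs1 was lower than the mean of the 2 Slbp mutants for Hsp68 by a log2 fold change of −2.06 ± 0.28 (4.38-fold, adjusted p = 0.002) and for Hsp67Ba by −2.45 ± 0.42 (5.94-fold, adjusted p = 0.0045). Both held in all 8 fits without 1 library and in all 8 other alternatives. Hsp67Bc (1.58, adjusted p = 0.021), Hsp26 (0.52, adjusted p = 0.028) and Hsp83 (0.37, adjusted p = 0.031) were higher in grp fs1 than in the Slbp mutants. Of the 7 members tested, 3 were thus higher and 2 lower, where 35.7% of all 9868 genes were called (19.4% higher, 16.3% lower). Hsp67Bc lost its call without grp fs1 replicate 2 or Slbp 10/12 replicate 2 (adjusted p = 0.051 each) or Slbp 10/12 replicate 1 (0.05) and with DESeq2 (0.073), and Hsp26 without either grp fs1 library (0.18 and 0.053), either wt library (0.096 and 0.093) or Slbp 10/12 replicate 1 (0.071). The Hsp83 call, kept in 2 of 8 such fits, was lost without grp fs1 replicate 1 (0.16), either wt library (0.081 and 0.078), either Slbp 10/12 library (0.078 and 0.051) or Slbp 10/15 replicate 2 (0.082), and under upper quartile scaling (0.24).

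Hsp23 was the member with the least repeatable values in the mutants. It had 3086 and 3290 normalized counts in grp fs1 embryos, 1010 and 2439 in Slbp 10/12 and 766 and 3065 in Slbp 10/15, against 1381 and 1405 in wt. Both grp fs1 libraries lay more than 1000 counts above wt, yet the test, which takes its spread from all 4 groups, did not pass (log2 fold change 1.19 ± 0.62, adjusted p = 0.16). With only grp fs1 and wt in the fit the adjusted p was 0.0053, and without Slbp 10/15 replicate 1 or 2 it was 0.043 or 0.045. Against the Slbp mutants, Hsp23 was called higher in grp fs1 without Slbp 10/15 replicate 2 (1.54, adjusted p = 0.023). In each Slbp mutant 1 library was below and 1 above wt, with replicate 2 higher by 1.27 and 2.00 on the log2 scale, where the median absolute gap over genes with a group mean of at least 50 was 0.102 and 0.0879. The same replicates 2 were higher for Hsp68 (by 0.64 and 0.96), Hsp67Ba (by 0.31 and 0.87), Hsp26 (by 0.34 and 0.44) and Hsp27 (by 0.25 and 0.21). For Hsp67Bc they were lower (−0.052 and −0.13), and for Hsp83 higher in Slbp 10/12 (0.097) and lower in Slbp 10/15 (−0.12).

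Against wt, 2 of 7 members fell and 0 rose in grp fs1 by limma (edgeR called 2 and DESeq2 3 members, Hsp83 as higher), where 43.0% of all genes tested were called (14.3% higher, 28.7% lower). In Slbp 10/12, 1 rose and 2 fell, where 48.6% were called (15.6% higher, 33.0% lower), and in Slbp 10/15 again 1 rose and 2 fell, where 58.9% were called (20.1% higher, 38.9% lower). Between the Slbp mutants 0 of 7 members were called, where 3.29% of genes were (1.81% higher, 1.48% lower), with 1 member, Hsp26, at an unadjusted p under 0.05 by limma, 0 called by edgeR and 1, Hsp83, by DESeq2. The interval of the Hsp26 difference was 0.0052 to 0.79. Hsp68 lost its call in grp fs1 without either grp fs1 library (adjusted p = 0.081 and 0.054) or either wt library (0.12 each). Hsp67Ba lost its call in Slbp 10/12 without either wt library (0.09 and 0.084) or either Slbp 10/12 library (0.062 and 0.089), and in Slbp 10/15 without either wt library (0.09 and 0.087) or Slbp 10/15 replicate 2 (0.12), so that under upper quartile scaling, where it also did not pass (0.053 and 0.077), 0 members rose and 2 fell in each Slbp mutant.

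**Figure D4:**
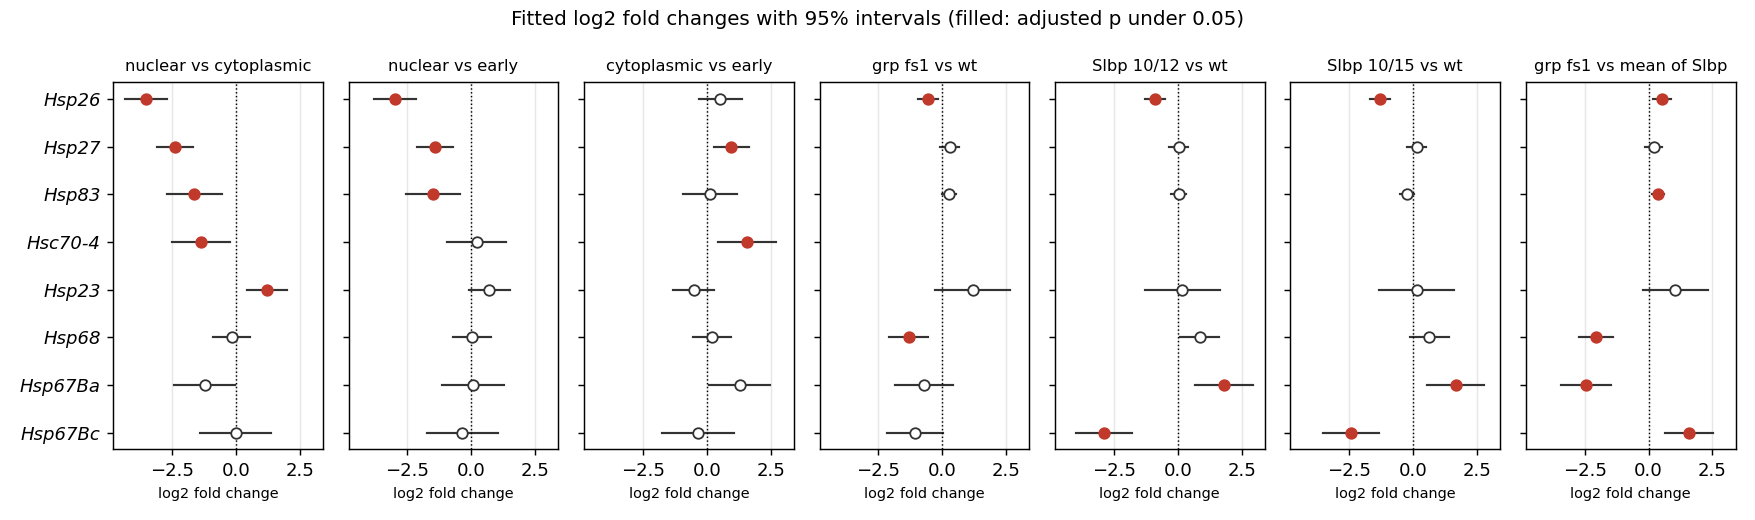
Fitted log2 fold changes of the members (rows) with 95% intervals in 7 comparisons (panels), the first-named group over the second. Filled points passed an adjusted p under 0.05 over all genes tested. Hsp26 is below 0 in 5 of the panels with filled points, and Hsp68 and Hsp67Ba lie on opposite sides of 0 in grp fs1 and the Slbp mutants.

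Upper quartile scaling in place of the deposited scaling shifted the median log2 fold change of all genes by 0.394 between nuclear and cytoplasmic extracts. Against wt the shift was −0.309 in grp fs1 embryos, −0.381 in Slbp 10/12 and −0.376 in Slbp 10/15. This scaling multiplies each library by 1 factor, so the distance of a gene from that median is nearly fixed by construction: between nuclear and cytoplasmic extracts Hsp26 lay at −3.75 from it, and in Slbp 10/15 against wt Hsp26 lay at −1.09 and Hsp67Ba at 1.85.

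The regulators of the heat shock response were measured in the same libraries. Hsf averaged 7909 normalized counts in grp fs1 embryos, 7745 in Slbp 10/12 and 7671 in Slbp 10/15, against 7213 in wt, and passed the test in none (log2 fold change 0.13, 0.10 and 0.09, adjusted p = 0.094, 0.17 and 0.2). Like Hsp26 and Hsp27 it was lower in the nuclear extracts, with 6847 in nuclear and 17522 in cytoplasmic extracts (−1.32, adjusted p = 0.0032). Hsromega, the long noncoding RNA of the nuclear omega speckles, averaged 4655 in nuclear and 1411 in cytoplasmic extracts (1.70, adjusted p = 0.00042). It had 44.8 and 128 in grp fs1 embryos, 53.1 and 28.8 in Slbp 10/12 and 77.9 and 17.8 in Slbp 10/15, against 1008 and 1076 in wt (−3.76, −4.70 and −4.76, adjusted p = 0.0079, 0.003 and 0.0024). The 6 heat-inducible Hsp70 genes, near-identical copies whose reads cannot be assigned with certainty, summed to only 144 and 81.8 in nuclear, 76.0 and 104 in cytoplasmic and 57.0 and 35.8 in early libraries. They summed to 10.3 and 10.4 in grp fs1 embryos, 12.8 and 4.37 in Slbp 10/12 and 12.1 and 15.8 in Slbp 10/15, against 37.2 and 46.9 in wt.

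Most chaperonins, and most Hsp90 proteins and co-chaperones, were also lower in the nuclear than in the cytoplasmic extracts. Over all genes, 28.6% were lower and 26.9% higher. Of 8 other Hsp70 family genes tested, 3 were lower and 0 higher. Of 10 Hsp90 proteins, co-chaperones and other chaperone partners, 6 were lower and 1, CG10565, higher in the nuclear than in the cytoplasmic extracts. The falls were led by the immunophilin Fkbp59 (log2 fold change −2.77, adjusted p = 6.3e-06) and Hop (−2.52, adjusted p = 1.5e-05), which links Hsp70 to Hsp90. Of 13 chaperonin and prefoldin genes 12 were lower and 0 higher (median −2.19), such as the prefoldin mgr (−2.73, adjusted p = 3.1e-06). The 16 J-domain proteins, exchange factors and other Hsp70 partners were divided, with 4 higher and 5 lower. DnaJ-H (−2.55, adjusted p = 7.2e-06) fell, whereas the Hsp70-binding HIP (2.28, adjusted p = 5.9e-05) and the ubiquitin ligase CHIP (2.18, adjusted p = 3.8e-05) rose.

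In the mutants the chaperonin list gave different counts in grp fs1 and in the Slbp mutants. Of the 13 chaperonin and prefoldin genes, 7 rose and 0 fell in grp fs1 against wt, 0 rose and 1 fell in Slbp 10/12, and 1 rose and 7 fell in Slbp 10/15. For comparison, the share of all genes that rose was 14.3% for grp fs1, 15.6% for Slbp 10/12 and 20.1% for Slbp 10/15, and the share that fell was 28.7%, 33.0% and 38.9%. The median log2 fold change of the 13 in grp fs1 was 0.225, against −0.101 over all genes. It was −0.11 in Slbp 10/12 (all genes −0.114) and −0.235 in Slbp 10/15 (all genes −0.187). Upper quartile scaling shifted the median of all genes in grp fs1 by −0.309, so rises of this size depend on the deposited scaling. Calls of this list under that scaling are not given here. Set against the mean of the Slbp mutants, 10 of the 13 were higher and 0 lower in grp fs1 (19.4% and 16.3% over all genes), including mgr (log2 fold change 0.62, adjusted p = 0.0011) and the ring subunit CG8258 (0.63, adjusted p = 0.0025). The median log2 difference of the 13 was 0.345 against 0.0485 over all genes. Of the 10 Hsp90 proteins, co-chaperones and other chaperone partners, 1 rose and 0 fell in grp fs1. In Slbp 10/12, 0 rose and 2 fell, and in Slbp 10/15, 2 rose (CG10565 and CG1416) and 3 fell. Hop fell in Slbp 10/12 (−0.32, adjusted p = 0.0065) and Slbp 10/15 (−0.67, adjusted p = 0.00072), as did the myosin chaperone unc-45 (−0.46, adjusted p = 0.036; −0.61, adjusted p = 0.011). Of the 16 J-domain proteins, exchange factors and other Hsp70 partners, 5 rose in each mutant. Of the same list 3 fell in grp fs1 embryos, 3 in Slbp 10/12 embryos and 4 in those of Slbp 10/15. DnaJ-1, the Hsp40 partner of Hsp70, fell as Hsp26 did in all 3 mutants, by −0.27 in grp fs1 embryos (adjusted p = 0.013), −0.63 in Slbp 10/12 (0.00074) and −0.80 in Slbp 10/15 (0.00036). The mitochondrial J-domain protein l(2)tid rose in grp fs1 against wt (1.55, adjusted p = 0.00012) and was also higher than in the Slbp mutants (1.37, adjusted p = 9.1e-05). In the other small heat shock protein list, 3 of 4 tested fell and 0 rose in each mutant, where 28.7%, 33.0% and 38.9% of all genes fell. These were l(2)efl, CG7409 and CG13133, all low in wt, CG7409 at 14.0 and 9.82 and CG13133 at 5.82 and 4.36 normalized counts. Each reached the group mean of 5 needed for the test only in wt. They could thus enter the test only by being higher in wt, so the count of falls cannot be read as a result about this list. The 7 muscle genes fell in the same libraries, and their part was not tested.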

How the data were processed

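Total RNA libraries of 14 embryo samples, 2 per group, were analysed from 2 deposited tables. Per the labels and the study's methods, the authors checked reads with FastQC 0.10.1, aligned them to dm3 with TopHat, counted them per gene with featureCounts and normalized them. The submitters' notes name DESeq for that step and the methods name DESeq2, and which was used is not settled here. The deposited values are therefore a signal (normalized counts, reads divided by a size factor of the library), and in the mutant table also FPKM, which the authors made from the same values and gene length, so that it holds no separate information between libraries. Dividing by each library's smallest step gave whole reads for 100% of values within a tolerance of 0.01, the basis of the totals and of the edgeR and DESeq2 fits. The step of Slbp 10/15 replicate 2 is close to 1 and is the least certain. The tables were scaled separately and no test crosses them.

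Values were tested as log2(normalized count + 1) with limma 3.58.1 (trend, R 4.3.3), all groups of a table in 1 fit, keeping genes whose mean reached 5 in 1 or more groups, two-sided, adjusted over all genes tested by Benjamini-Hochberg (threshold 0.05). Fold changes on this scale understate those of low genes, while folds quoted in words are ratios of group means. Errors of log2 fold changes are standard errors, and depth limits counting precision only for Hsp67Ba, Hsp67Bc and Hsp70. As alternatives, the fit was repeated with edgeR 4.0.16 and with DESeq2 1.42.0, with a pseudocount of 5, unfiltered, with every library required to reach 5, with upper quartile scaling, with a replicate block, on the compared groups alone, and with each library removed in turn. No columns of the authors' own comparisons were used.

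All members were named, with Hsf, Hsromega and the Hsp70 copies; from other lists, up to 2 genes that rose and 2 that fell per comparison by size, at a mean of at least 50, were eligible, and l(2)efl, CG7409, CG13133, CR43481, l(2)tid and the marker lists are given beside results they touch. The members and the lists were chosen with earlier results of these data known. Coordinates and exon overlaps come from the BDGP6.54 annotation, matched by gene ID or, for Hsc70-4, by symbol. Sequences of promoters and proteins were not used here.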

Additional observations from a re-analysis of the deposited data

Results flagged for a closer look

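For 5 members grp fs1 differed from the Slbp mutants by a direct limma test against both Slbp groups averaged. The wt mean has no weight in this difference, but the wt libraries still enter the estimate of spread. Of the 5 cellularization genes, 3 were called higher and 0 lower in grp fs1 by this test (19.4% and 16.3% of all genes), with a median log2 difference of 2.0. The 7 muscle genes had a median of 3.16, and 0 were called. Genotype and the actual age of the embryos cannot be told apart here either. As given above, the calls of Hsp67Bc, Hsp26 and Hsp83 were lost in some fits without 1 library. The log2 differences were −2.45 for Hsp67Ba, −2.06 for Hsp68, 1.58 for Hsp67Bc, 0.52 for Hsp26 and 0.37 for Hsp83. Hsp68 and Hsp67Ba lay on opposite sides of wt in the 2 kinds of mutant, in 2 of 2 grp fs1 and 4 of 4 Slbp libraries each. Hsp67Bc and Hsp26 lay below wt in every mutant library, and differed in size. For Hsp83, both grp fs1 libraries were above wt and both Slbp 10/15 libraries below it. With 2 libraries per group, no test for single outlying libraries was possible.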

How the results depend on the processing

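Without the filter on low values fewer members were called: 2 between nuclear and cytoplasmic extracts, 1 between nuclear extracts and early embryos, 0 between cytoplasmic extracts and early embryos, 0 in grp fs1 against wt, and 3 in grp fs1 against the Slbp mutants. With only the groups compared, 0 were called between cytoplasmic extracts and early embryos. DESeq2 called 1 member between the Slbp mutants. Leaving out 1 library at a time gave 2 to 4 calls between nuclear and cytoplasmic extracts, 0 to 4 between nuclear extracts and early embryos, 0 to 4 between cytoplasmic extracts and early embryos, 0 to 3 in grp fs1, 1 to 4 in Slbp 10/12, 2 to 4 in Slbp 10/15 and 2 to 5 in grp fs1 against Slbp. The causes were not tested.

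The replicate numbers do not pair the libraries by any label, and their deviations correlated at −0.514 between the cytoplasmic and nuclear extracts and at −0.2 to 0.0919 between other groups. With the replicate block, 0 members were called between cytoplasmic extracts and early embryos, Hsc70-4 lost its call between the extracts (adjusted p = 0.071), and Hsp68 gained one in Slbp 10/12 (adjusted p = 0.041). It changed no other call.

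No called member changed sign under any alternative. Uncalled values that did were, under upper quartile scaling, Hsp67Bc (0.37) and Hsp68 (0.24) between nuclear and cytoplasmic extracts, Hsp27 (−0.027) and Hsp83 (−0.043) in grp fs1, Hsp23 (−0.21), Hsp27 (−0.35) and Hsp83 (−0.34) in Slbp 10/12, and Hsp23 (−0.24) and Hsp27 (−0.24) in Slbp 10/15. Between the Slbp mutants Hsp23 was at −0.13 by edgeR and −0.15 by DESeq2. Leaving out 1 library gave ranges that crossed 0 between nuclear and cytoplasmic extracts for Hsp67Bc (−0.86 to 0.83) and Hsp68 (−0.50 to 0.16), between nuclear extracts and early embryos for Hsp67Ba (−0.10 to 0.22), Hsp67Bc (−0.73 to 0.013) and Hsp68 (−0.14 to 0.19), and between cytoplasmic extracts and early embryos for Hsp23 (−1.18 to 0.14), Hsp67Bc (−1.18 to 0.50), Hsp68 (−0.13 to 0.53) and Hsp83 (−0.37 to 0.64). In Slbp 10/12 these were Hsp23 (−0.46 to 0.81), Hsp27 (−0.19 to 0.26) and Hsp83 (−0.010 to 0.086), in Slbp 10/15 Hsp23 (−0.86 to 1.14) and Hsp27 (−0.0867 to 0.36), and between the Slbp mutants Hsp23 (−0.97 to 1.03), Hsp27 (−0.23 to 0.025), Hsp67Ba (−0.28 to 0.60) and Hsp68 (−0.26 to 0.70). With 2 libraries per group, leaving one out assumes that the lone library varies like the others. Low counts limit Hsp67Bc and Hsp67Ba, and a small fold could not be told from 0 for either.

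Counts over all genes also moved. Between the Slbp mutants 325 genes were called in the reported fit, against 935 by DESeq2, 643 with 5 required in every library, 113 with no filter, 60 under upper quartile scaling, and as few as 6 with 1 library left out. Requiring 5 in every library left 6788 genes tested in the mutants in place of 9868. It gave 2240 calls in grp fs1 (33.0%, against 4243 or 43.0% in the reported fit), 2382 in Slbp 10/12 (35.1%, against 4795 or 48.6%) and 3412 in Slbp 10/15 (50.3%, against 5816 or 58.9%). No filter meant 15682 genes tested in the first table in place of 10335. It gave 3766 calls between nuclear and cytoplasmic extracts (24.0%, against 5732 or 55.5%), 753 between nuclear extracts and early embryos (4.8%, against 2485 or 24.0%) and 1406 between cytoplasmic extracts and early embryos (8.97%, against 3809 or 36.9%). Upper quartile scaling gave 2028 in grp fs1 against Slbp (3523), and only the groups compared gave 3882 between nuclear extracts and early embryos. Without nuclear replicate 1 or 2 that last count was 210 or 336. The shares of all genes called, given beside the member counts, also fell when 1 library was left out, to as low as 31.6% between nuclear and cytoplasmic extracts (nuclear replicate 1), 2.05% between nuclear extracts and early embryos (nuclear replicate 1), 14.8% between cytoplasmic extracts and early embryos (early replicate 1), and, without wt replicate 1, 19.4% for grp fs1, 24.6% for Slbp 10/12 and 33.3% for Slbp 10/15.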

Other observations

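The genes whose pattern over the 14 libraries, centred on each table's mean, was most like that of Hsp26 were ksh (Pearson r = 0.994), CG9125 and CG5118, and for Hsp83 they were Hnf4 (r = 0.995), fz4 and CG11178, among 7262 genes. For Hsp27 they were Lsd-2 (0.986), PhKgamma and Lrr47, for Hsp67Ba CG18131 (0.965), HdacX and CR42861, and for Hsp68 CG10151 (0.925), Itp-r83A and Atx2. Hsp23 had no close match, the nearest being CG32625 (0.757). These values are a description over libraries that share groups, tables and scaling, so they carry no p.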
